A study of Mus musculus with 2 samples.

Results

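Strong enrichment peaks that kept nearly the same width were examined in 2 libraries of E14 mouse embryonic stem cells, 1 from cells transfected with a hairpin against GFP (shGFP, the control) and 1 from cells transfected with a hairpin against Dnmt3L (shDnmt3L). The members were chosen by their measured overlap, score and width. A region belonged to the set when 1 shGFP peak overlapped exactly 1 shDnmt3L peak and the reverse, by 1 bp or more, when both peaks lay in the top 10% of scores of their own list, and when the width in shDnmt3L divided by that in shGFP lay between 0.9 and 1.1. Such pairs numbered 1954 (95% Poisson interval 1868 to 2043), out of 55292 shGFP and 45579 shDnmt3L peaks. The score limits fix how many peaks of each list can qualify, so the Poisson interval is only a rough guide. The labels give no time after transfection, no clone and no measure of Dnmt3L itself, whose knockdown was not analysed here. With 1 library in each group no value has a replicate error and no p-value was computed. Intervals below cover counting error only and treat neighbouring peaks as independent.

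Dnmt3L is a catalytically inactive relative of the DNA methyltransferases that binds the de novo enzymes Dnmt3a and Dnmt3b, and it is best known for its part in setting methylation in germ cells. Methylated cytosine can be oxidised by Tet enzymes to hydroxymethylcytosine, which is abundant in embryonic stem cells. Enrichment sequencing captures fragments that carry a modification, and a peak caller joins stretches with more fragments than the background into peaks, so a peak's width describes how far a stretch of enrichment extends. The labels name the samples as MeDIP, a capture of methylcytosine, while the protocol names the Hydroxymethyl Collector kit, which captures hydroxymethylcytosine. Peaks are therefore called enrichment peaks, without naming the modification. No genome or annotation of the files' build, mm9, was used here, so no sequence, gene, promoter or CpG island is given for a peak.

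The rule used overlap, score and width, so the numbers that follow from these are a description. The top 10% of scores began at 286.2 in shGFP and at 301.0 in shDnmt3L. It held 5530 shGFP peaks, of which 3078 were in a pair with a strong partner, 1874 in a one-to-one pair with a weaker partner, 578 in overlaps with several peaks and 0 without a partner. Of the 4558 strong shDnmt3L peaks, 3078 were in the same pairs, 400 had a weaker partner, 653 had several overlaps and 427 had no partner. The members thus made up 35.3% of strong shGFP peaks and 42.9% of strong shDnmt3L peaks. They were 3.53% of the shGFP list but 6.09% of its summed width (7.20 of 118 Mb), and 4.29% of the shDnmt3L list and 5.92% of its summed width (7.37 of 124 Mb).

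Among the 3078 strong pairs, 1954 met the width rule, which was 63.5% (Wilson 95% interval 61.8 to 65.2%), while 974 (31.6%) were wider in shDnmt3L and 150 (4.87%) were narrower. Over all 37952 one-to-one pairs the shares were 52.2%, 40.4% and 7.43%. Within the strong pairs, the share that met the rule was nearly level across score. It was 61.0% (57.1 to 64.8%) in the 20% of pairs with the lowest shGFP scores, 66.8%, 61.4% and 61.6% in the next 3 bins of 20%, and 66.6% (62.7 to 70.2%) in the 20% with the highest.

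The median member was 3170.5 bp wide in shGFP (quartiles 2507 and 4370 bp) and 3260.5 bp in shDnmt3L (quartiles 2572 and 4501 bp). The narrowest was 828 bp and the widest 74190 bp in shGFP. The median over each whole list was 1998 bp (shGFP) and 2376 bp (shDnmt3L). Stable pairs below the score limits, 17858 in number, had medians of 2191 and 2253 bp. Members were wider than the median of each list. Against all peaks in the top 10% of scores, whose medians were 2809 bp in the shGFP list and 4094 bp in the shDnmt3L list, members were wider in shGFP and narrower in shDnmt3L. The other 1124 strong pairs had a median shGFP width of 2690 bp, 481 bp less than the members, but a median shDnmt3L width of 3214 bp, only 47 bp less. These pool unlike pairs. The 974 pairs wider in shDnmt3L had medians of 2559.5 bp (shGFP) and 3302.5 bp (shDnmt3L). The 150 narrower pairs had medians of 3585.5 and 2651.5 bp. The ratio rule sorted the pairs by their change in width, so these contrasts follow in part from it.

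**Figure D1:**
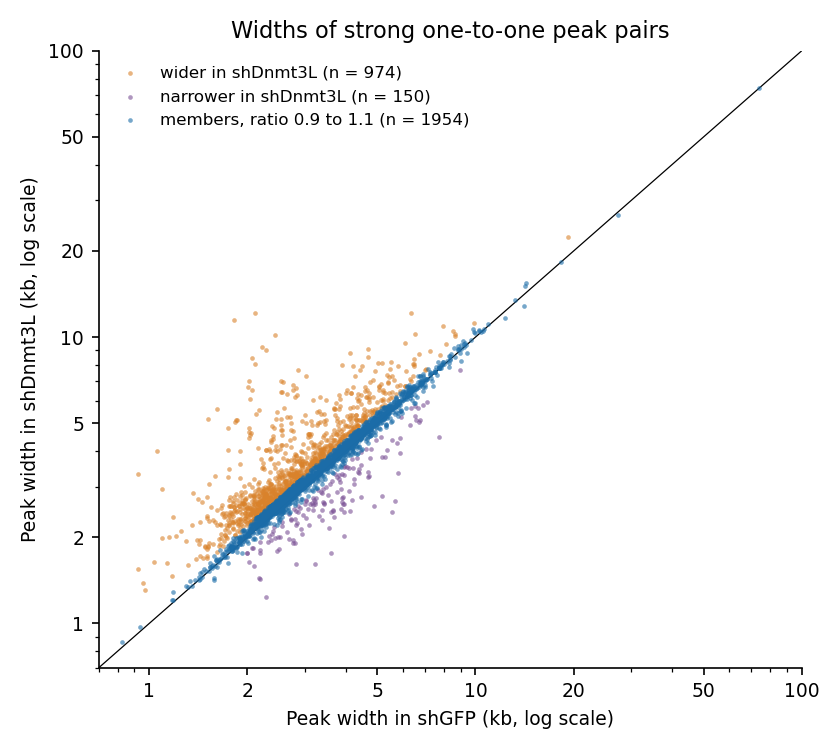
Width of the shDnmt3L peak (vertical axis, kb, log scale) against width of the shGFP peak (horizontal axis, kb, log scale) for the 3078 strong one-to-one pairs, 1 point per pair, with a line of equal width. The 1954 members lie along the line from 828 bp to 74190 bp, the 974 wider pairs above it and the 150 narrower pairs below.

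By width class, the share of strong pairs that met the ratio rule was higher for wider peaks. It was 41.0% (35.5 to 46.8%) of 290 pairs under 2 kb in shGFP and 53.6% of 662 pairs from 2 to 2.5 kb. From 2.5 to 3 kb it was 67.6% of 629, and from 3 to 4 kb 63.97% of 655. It was 73.8% of 644 pairs from 4 to 6 kb, 80.3% (74.0 to 85.4%) of 183 pairs from 6 to 10 kb, and 14 of 15 pairs of 10 kb or more. A ratio allows more base pairs of change in a wider peak, so the same pairs were also counted by a fixed tolerance of 200 bp in width, a count added after the values were seen. On that measure the share did not climb with width: it was 42.8% (37.2 to 48.5%) under 2 kb, 57.7% from 2.5 to 3 kb, 46.1% from 4 to 6 kb, 45.4% (38.3 to 52.6%) from 6 to 10 kb and 4 of 15 at 10 kb or more.

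In base pairs, the width of a member differed little between libraries, with a median of 69 bp more in shDnmt3L (quartiles 32 and 168 bp) and a median ratio of 1.02. In the other strong pairs the median difference was 526 bp. Most peaks were the wider one in shDnmt3L, among members as over all one-to-one pairs. Of the members, 1586 (81.2%, 79.4 to 82.8%) were wider, 120 had equal width and 248 (12.7%) were narrower. Over all 37952 one-to-one pairs 81.7% were wider and 14.5% narrower. Among stable pairs below the score limits the shares were 78.9% and 13.7%. The shares of other strong pairs that were wider and narrower were 86.7% and 13.3%. The extra width of members was small in all width classes, with medians of 35 bp under 2 kb, 70 bp from 3 to 4 kb, 96 bp from 6 to 10 kb and 133.5 bp at 10 kb or more.

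Many edges of members stood at 1 of 2 offsets, as did those of stable pairs with lower scores. The start of the shDnmt3L peak was on the same base as that of the shGFP peak in 470 members (24.1%) and exactly 32 bp outside it in 511 (26.2%). The end was on the same base in 463 (23.7%) and exactly 32 bp outside in 476 (24.4%). At least 1 edge stood at one of these offsets in 1431 members (73.2%, 71.2 to 75.2%), and both edges did in 489 (25.03%). Stable pairs below the score limits stood at these offsets more often, with at least 1 edge in 80.0% (79.4 to 80.6%) of 17858 and both edges in 32.4% (31.7 to 33.0%), and over all 37952 one-to-one pairs the shares were 61.5% and 16.5%. The 489 members were 120 pairs with both edges on the same base, 144 with both edges 32 bp outside, and 225 with 1 edge of each kind. In the other strong pairs the start was on the same base in 96 of 1124 (8.54%) and 32 bp outside in 123 (10.9%). The rule held members to a small change in width and left the larger changes to the other strong pairs. That bears on single edges too, so this contrast is not a trait found apart from the rule. Both edges at these offsets would make a difference of at most 64 bp, and none of the other strong pairs was within 64 bp in width, so they could not hold such a pair by construction.

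**Figure D2:**
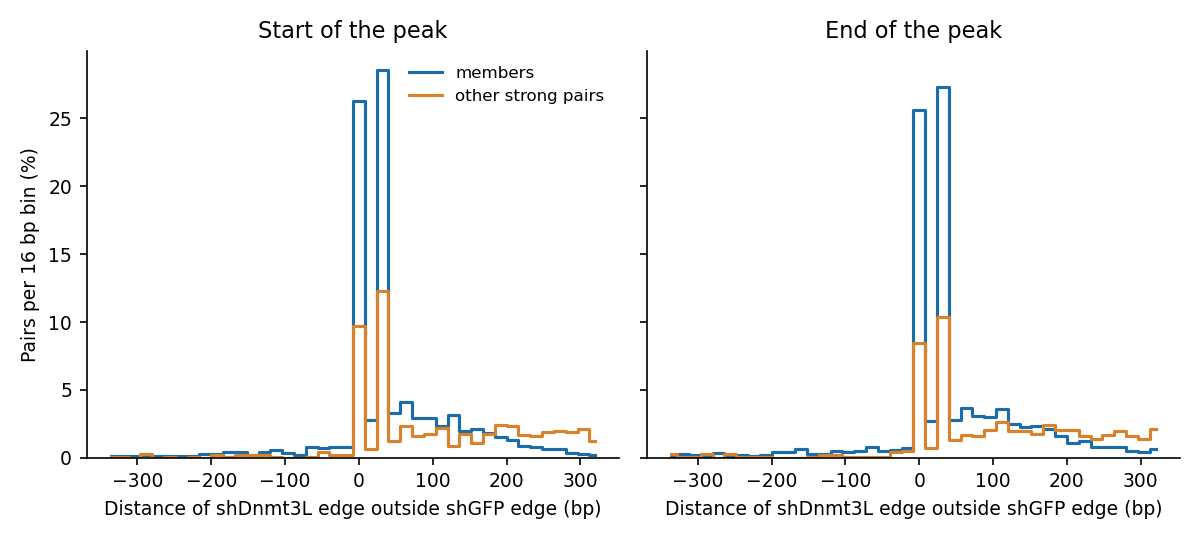
Distance in bp by which the start (left) and the end (right) of the shDnmt3L peak lay outside that of the shGFP peak, for the 1954 members and the 1124 other strong pairs, as a percent of pairs per 16 bp bin; distances beyond the axis are not drawn. Both sets peak at 0 and 32 bp, members more sharply; the width rule, which holds members to small changes, bears on this difference.

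A stable width did not always mean an unmoved peak. The shGFP peak lay wholly inside the shDnmt3L peak in 1582 members (81.0%) and the reverse held in 213 (10.9%). The 120 pairs with identical edges are in both counts. Over all 37952 one-to-one pairs these shares were 80.2% and 9.24%. In 151 members (7.73%) both edges had moved the same way by more than 32 bp, by a median of 186 bp at the start and 180 bp at the end, which still left a median of 94.7% of the shGFP peak covered. In the other strong pairs, 79 (7.03%) had moved in this way, and over all one-to-one pairs 7.61%, so such shifts were not particular to members. Less than 90% of the shGFP peak was covered in 32 members. The least covered member, singled out after its values were seen, lay on chromosome 5, from 36230508 to 36234379 in shGFP (3872 bp) and from 36232248 to 36235764 in shDnmt3L (3517 bp), so that 55.1% of the shGFP peak was covered at a width ratio of 0.91.

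Scores rank peaks within a list only. The median member had rank 1823.5 of the shGFP list (score 492) and rank 2378 of the shDnmt3L list (score 420), against ranks 1782 and 2302 in the other strong pairs. Members were thus placed much like the other strong pairs within the top 10%. In both lists at once, 170 of the 1954 members and 72 of the 1124 other strong pairs were in the top 1% of scores. Over the members, the rank correlation between the 2 scores was 0.90 (n = 1954), against 0.76 over the other strong pairs (n = 1124). Members were held to a similar width in both lists and the other strong pairs to an unlike one. Whether that choice set these values apart was not tested. Among members, the rank correlation of width and score was 0.22 in shGFP and 0.23 in shDnmt3L. Members were cut at the top 10% of scores, so these values do not describe the relation over the whole lists. Stable pairs below the score limits had a median shGFP width of 2191 bp, against 3170.5 bp for members. All these rank correlations are across regions of the same 2 libraries, which are not replicates. Per kb of width, the median shGFP score was 160 in members and 183 in the other strong pairs, and the median shDnmt3L score 135 in both.

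A single member had the best summed rank, and 9 tied behind it with a score of 3100 in both lists. This value was shared by 16 shGFP and 19 shDnmt3L peaks, so it may not order peaks by enrichment. The tie was ordered by width, and the 4 named here after the first are therefore the widest of the 9. The first lay on chromosome 4 from 151832039 to 151835342 in shGFP, 3304 bp wide with a score of 3100, and was 3470 bp wide with a score of 3204 in shDnmt3L, the top peak of that list. The widest of the tied members, on chromosome 11 from 3026531 to 3100720, was 74190 bp wide in shGFP and 74393 bp in shDnmt3L, the widest member in both. On chromosome Y from 2874670 to 2902002, a peak of 27333 bp in shGFP measured 26738 bp in shDnmt3L. A chromosome 9 peak from 3014860 to 3033161 measured 18302 and 18366 bp, with each edge 32 bp outside in shDnmt3L. The fourth of the tied members by width, on chromosome Y from 2849956 to 2864132, measured 14177 and 15118 bp. In all, 10 members scored 3100 or more in both lists. Whether a control library was used and how repeat reads were handled is not given. Whether repeated sequence or copy number raised the scores or widths of these peaks was not tested.

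Broad members were few. In shGFP 14 of the 29 peaks of 10 kb or more were members, and in shDnmt3L 17 of 244. The 14 were of that width in both libraries, and 3 of them lay on chromosome 8. The 5 widest in shGFP were the 4 wide peaks just given and a chromosome 17 peak from 31039227 to 31053557. That peak was 14331 bp wide (score 1971) in shGFP and 15411 bp (score 1974) in shDnmt3L, where it began 920 bp further out.

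At the other end, 100 members were under 2 kb in both libraries. The narrowest, on chromosome 3 from 142831740 to 142832567, was 828 bp wide in shGFP (score 374) and 860 bp in shDnmt3L (score 313). Its start was unmoved and its end was 32 bp further out. A chromosome 12 peak from 19208697 to 19209630 measured 934 and 974 bp. Next came peaks on chromosome 2 from 9913845 to 9915017 (1173 and 1205 bp) and on chromosome 1 from 11167740 to 11168919 (1180 and 1212 bp), both again with the same start and an end 32 bp further out. The fifth, on chromosome 4 from 15463098 to 15464277, measured 1180 and 1284 bp. The first 4 of these 5 narrow members therefore began on the same base in both lists.

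The limits of the rule cut through closely graded values. The 3 members nearest the lower width limit had ratios of 0.9012, 0.9018 and 0.9019, and the 3 strong pairs just beyond it 0.8997, 0.8993 and 0.8992. At the upper limit the nearest members were at 1.0999, 1.0998 and 1.0993, and the nearest pairs beyond it at 1.1003, 1.1004 and 1.1006. Stable pairs left out by the shGFP score limit alone numbered 45, and the nearest scored 286.0, 285.3 and 285.2, against 287.3, 287.3 and 289.3 for the nearest members. The shDnmt3L limit alone left out 987 stable pairs. The nearest of these scored 300.95, 300.87 and 300.7, against 301.09, 301.15 and 301.19 for the nearest members.

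Members lay on all 22 chromosomes named in the files (19 autosomes, X, Y and the mitochondrial genome), but unevenly. Chromosome 8 held 371 of them, 19.0% (17.3 to 20.8%), or 2.83 per Mb. On the other 18 autosomes the density went from 0.328 per Mb on chromosome 14 (41 members) to 1.27 on chromosome 17 (121 members), with a median of 0.662. Density is per Mb of the stretch up to the last peak of either list. Chromosome 8 also held 19.0% of all strong pairs and 10.8% of all one-to-one pairs. Strong pairs were 14.3% of the one-to-one pairs there and between 4.84% and 9.91% on the other autosomes.

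The share of strong pairs that were members differed less between chromosomes than the density. It was 63.5% (59.5 to 67.3%) on chromosome 8, equal to that of the whole set, and on the autosomes it ranged from 54.8% (47.0 to 62.5%) on chromosome 9 to 69.6% (58.8 to 78.7%) on chromosome 16. For 18 of 19 autosomes the interval held the share over all strong pairs, chromosome 9 being the exception. Among the autosomes, the median width of members was highest on chromosome 8, at 3785 bp (shGFP) and 3876 bp (shDnmt3L). On the other 18 autosomes the medians lay between 2588 bp (chromosome 14) and 3305 bp (chromosome 11) in shGFP. Widths of the other strong pairs were not split by chromosome, so whether this was particular to members was not tested. The median width ratio was between 1.01 and 1.03 on each of the 19 autosomes.

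**Figure D3:**
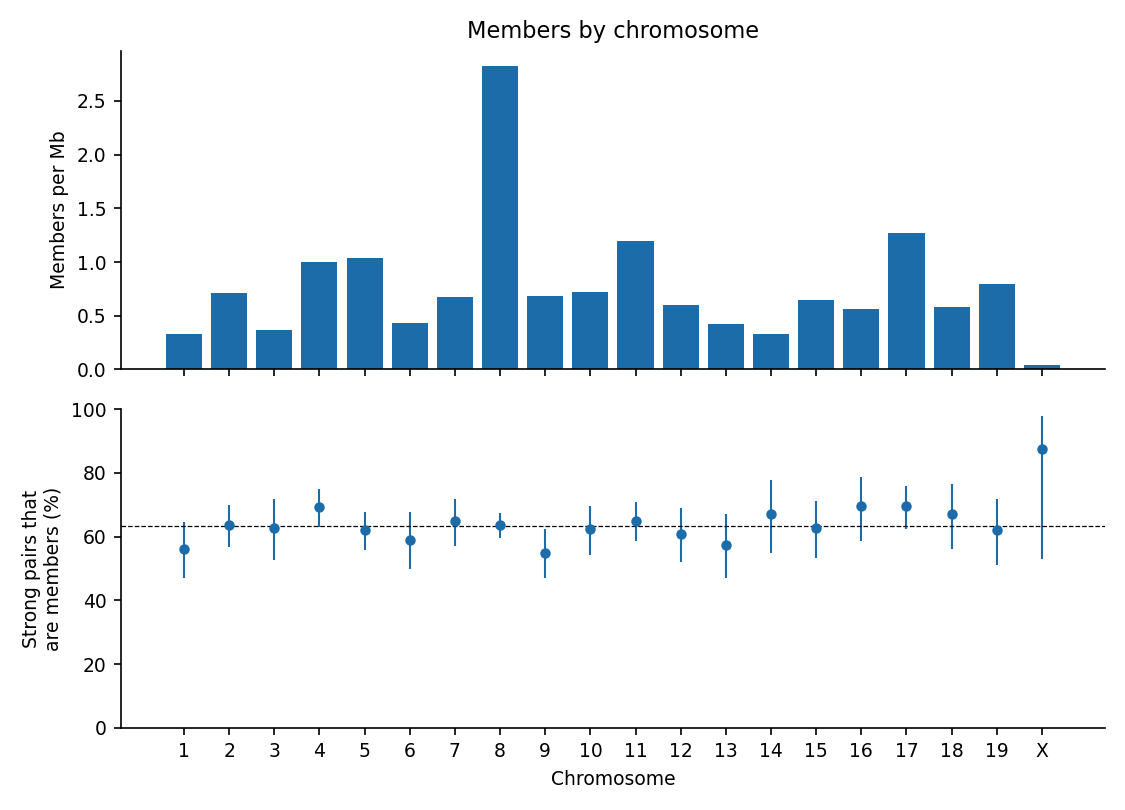
Members per Mb (top, bars) and percent of strong pairs that are members (bottom, points with Wilson 95% intervals, dashed line at 63.5% over all strong pairs) for the 19 autosomes and X; Y and the mitochondrial genome are not drawn. Chromosome 8 stands out in density at 2.83 per Mb but not in the share of strong pairs.

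The sex chromosomes and the mitochondrial genome held 14 members. The X chromosome had 7, or 0.0421 per Mb, out of 8 strong pairs. The strongest of these, from 137583691 to 137590752, was 7062 bp wide with a score of 2112 in shGFP and 7126 bp with a score of 1970 in shDnmt3L, with each edge 32 bp further out. A second X peak lay beside it from 137530179 to 137534005, 49685 bp away, at 3827 and 3859 bp. The other 5 X members had shGFP widths of 1794 to 5512 bp. On chromosome Y, the 6 one-to-one pairs were 6 strong pairs and 6 members. Their shGFP widths were 4179, 12283, 6052, 14177, 8271 and 27333 bp in order of position, and their shDnmt3L widths 3906, 11617, 6233, 15118, 8109 and 26738 bp. The last 5 of these lay together from 2779234 to 2902002. The single mitochondrial peak ran from 3 to 6861 in shGFP and from 1 to 6897 in shDnmt3L, at a score of 3100 in both lists.

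Along the autosomes, members were most frequent toward the high-coordinate end, which in the mouse is the end away from the centromere. The last 10% of the chromosomes' length held 543 of 1940 autosomal members, 28.0% (26.0 to 30.0%), and the 10% before it 308, 15.9%. The first 10% held 103, 5.31%, and the 7 bins between held from 5.57% to 9.28% each. All one-to-one pairs had the same outline with a lower rise, 19.8% (19.4 to 20.2%) in the last 10%. The other strong pairs had 25.4% (22.9 to 28.0%) there, an interval that overlaps that of the members. Without chromosome 8 the shares in this last bin were 26.1% of members, 22.0% of the other strong pairs and 19.4% of all one-to-one pairs. On chromosome 8 itself, 134 of 371 members lay in the last bin and 67 in the one before.

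**Figure D4:**
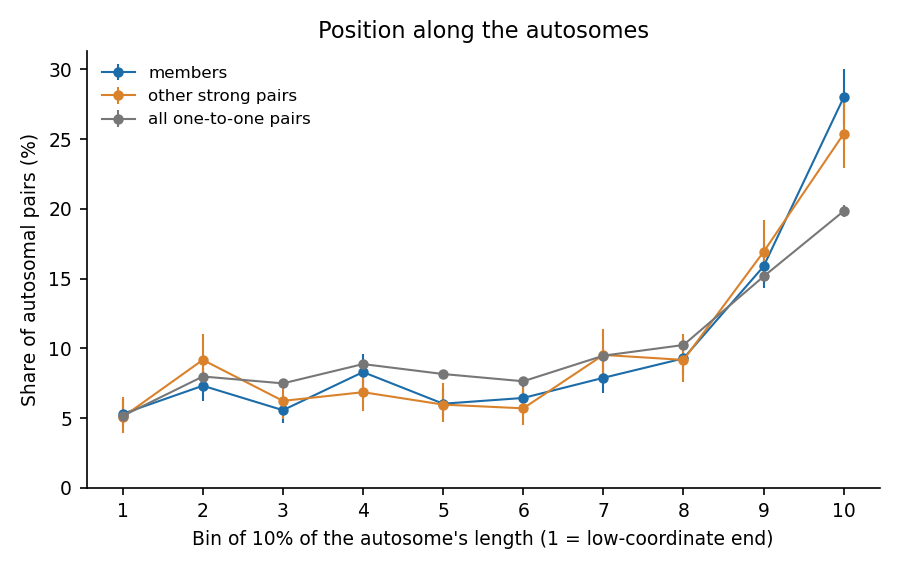
Percent of autosomal pairs in each 10% of the autosome's length, from the low-coordinate end (1) to the high-coordinate end (10), for members, other strong pairs and all one-to-one pairs, with Wilson 95% intervals. Each set is highest in the last bin, at 28.0%, 25.4% and 19.8%.

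Many members lay close to one another. The median distance from a member's midpoint to that of the nearest other member was 124 kb (quartiles 35.1 and 385 kb). Within 100 kb of another member lay 859 members, 44.0% (41.8 to 46.2%), and within 1 Mb 1732 (88.6%). On chromosome 8 the share within 100 kb was 74.1% and the median distance 39.5 kb; on all other chromosomes together they were 36.9% and 169 kb. The other strong pairs, measured among themselves, had 28.3% within 100 kb. As they are fewer, this share cannot be set against that of the members in either direction.

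Counts that allow for set size put members and other strong pairs close together. Within 500 kb of a member lay a median of 4 and a mean of 5.20 other strong pairs, and around the other strong pairs a median of 3 and a mean of 5.15. Where the nearest strong pair lay within 100 kb, it was a member for 701 of 1081 members (64.8%, 62.0 to 67.6%) and for 389 of 601 other strong pairs (64.7%, 60.8 to 68.4%). Members were thus not more often beside another member than the other strong pairs were, within these intervals. Counting shGFP peaks of any score, a median of 55 others lay within 500 kb of a member and 54 around the other strong pairs.

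**Figure D5:**
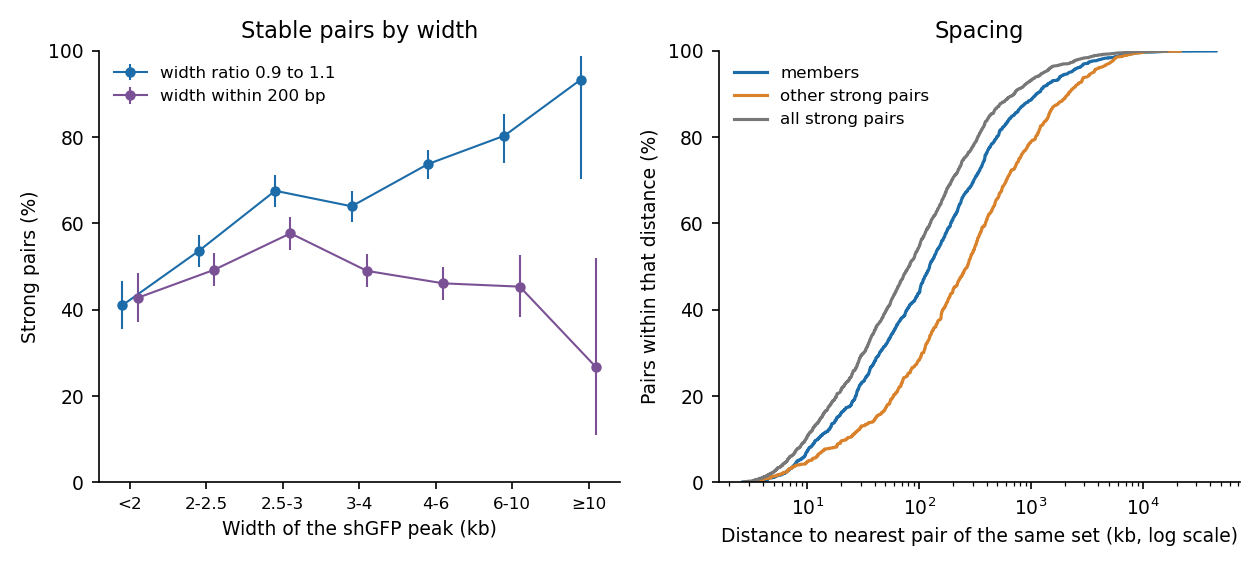
Left, percent of strong pairs with a width ratio of 0.9 to 1.1 and percent within 200 bp in width, by width of the shGFP peak in kb, with Wilson 95% intervals; the first is higher in wide peaks and the second is not. Right, cumulative percent of pairs against the distance in kb (log scale) to the nearest pair of the same set, for 1954 members, 1124 other strong pairs and 3078 strong pairs; curves of smaller sets lie further right by construction.

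When members within 100 kb of the next were joined, they formed 1411 groups: 1095 of 1 member, 206 of 2, 85 of 3 or 4 and 25 of 5 or more. The 25 large groups held 174 members, and 15 of the 25 were on chromosome 8. The largest lay on chromosome 8 from 124599196 to 125168341, with 15 members among 73 shGFP and 67 shDnmt3L peaks. The summed width of its members was 62.2 kb in shGFP and 63.3 kb in shDnmt3L. A second, from 119798229 to 120359769 on the same chromosome, had 13 members, with 54.5 and 56.2 kb. The third, from 128132338 to 128550527, also on chromosome 8, had 12 members with 54.2 and 55.9 kb. The fourth lay on chromosome 17 from 30807873 to 31057980, with 10 members of 69.6 and 71.0 kb, and included the 14331 bp peak given above. It was the largest of the 5 by summed width, and 10 of the 11 strong pairs in its span were members. The fifth was again on chromosome 8, from 123785104 to 123982681, with 10 members of 46.8 and 49.0 kb in a span of 198 kb.

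In windows of 1 Mb, members were found in 846 of the 2416 windows that held any shGFP peak (35.0%). A single member was found in 419 of these windows and 5 or more in 96, of which 33 were on chromosome 8. Those 96 windows held 677 members, 34.6% of the total. The fullest window, on chromosome 8 from 123000001 to 124000000, held 21 members among 33 strong pairs, 137 shGFP and 127 shDnmt3L peaks. The next 4 were on chromosome 8 as well, beginning at 126000001 with 15 members and at 119000001, 124000001 and 127000001 with 14 each. A window beginning at 128000001 also had 14 and ranked sixth by position alone. Of the 650 windows with other strong pairs, 421 also held a member, which is 64.8% of those windows and 49.8% of the windows with members.

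Weaker peaks near members were stable in width about as often as weaker peaks elsewhere. Of the 10532 weaker one-to-one pairs within 100 kb of any member, 51.5% (50.5 to 52.4%) had a width ratio of 0.9 to 1.1, and of the 20756 beyond 100 kb of any strong pair 51.5% (50.8 to 52.2%). Split further, the share was 52.3% (51.2 to 53.5%) of 7104 pairs near members only, 49.6% (47.9 to 51.3%) of 3428 near members and other strong pairs, and 48.7% (47.1 to 50.4%) of 3586 near other strong pairs only. Without chromosome 8 the share near any member was 51.6% and that beyond any strong pair 51.7%. Within bands of width, pairs under 2 kb were stable in 36.2% (34.4 to 38.1%) near members only, 34.4% (32.03 to 36.9%) near other strong pairs only and 39.5% (38.5 to 40.5%) beyond any strong pair. From 2 to 2.5 kb the shares were 62.5% (60.7 to 64.3%), 59.0% (56.4 to 61.6%) and 64.2% (63.1 to 65.3%) in the same order. Above that they were 59.6% (57.2 to 61.9%), 56.8% (53.3 to 60.3%) and 58.2% (56.4 to 59.9%). For pairs of 2 kb or more, the intervals near members only and beyond any strong pair overlapped, so their order there was not settled. Pairs within 100 kb of the same member share their surroundings, so these intervals are narrower than independent regions would give.

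Unshared peaks were found near most members, as they were near most of the other strong pairs. At least 1 shGFP peak with no shDnmt3L partner lay within 100 kb of 1685 members (86.2%), and at least 1 shDnmt3L peak with no shGFP partner within 100 kb of 1140 (58.3%, 56.1 to 60.5%). Around the other strong pairs these shares were 87.5% and 62.4% (59.5 to 65.2%). Peaks were dense near both sets, so at least 1 unshared peak is a low bar. With or without a partner, a mean of 13.1 shGFP and 11.3 shDnmt3L peaks lay within 100 kb of members. Around the other strong pairs the means were 12.7 and 11.1. No such share is given here over all one-to-one pairs. The gap between a member's shGFP peak and the next shGFP peak had a median of 3657 bp, against 4286 bp for the other strong pairs, and in shDnmt3L the medians were 4191 and 3994 bp.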

How the data were processed

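The authors deposited 1 peak list per library (positions, a peak name and a score). The score in column 5 is the value of the authors' peak caller; its lowest values, 50.01 and 50, fit 10 times −log10 of a p of 1e-05, as read from the values alone. Per the submitters' processing notes, the build was mm9 and the tools were MACS 1.4.1, Bowtie 0.12.7 and CASAVA 1.8, with no roles stated. Whether a control library was used, and how duplicate and repeat reads were handled, is not given in the sources used here. Depth is unknown.

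Pairs were formed and counted with pandas 2.3.3, scipy 1.17.1 and numpy 2.4.6 under Python 3.11.15, and drawn with matplotlib 3.10.9. Positions count the first base as 1. The top 10% is scores at or above the 0.9 quantile. Distances are between midpoints of shGFP peaks. The code was tested on simulated data. Members, lists and limits were chosen with earlier results of these data known. Named regions are the 5 members of best summed rank (ties ordered by width, the widest first), the 5 widest and narrowest, the 5 largest groups and fullest windows, those on Y and the mitochondrial genome, and the 3 pairs nearest each limit; the X members and the least covered member were chosen after their values were seen.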

Additional observations from a re-analysis of the deposited data

How the results depend on the processing

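Each result had a range, which was its 95% interval or, for the number of members, a factor of 1.5. Among 65 alternative values, 47 were inside this range and 18 outside. Counts, shares and median widths cannot be negative, so a change of sign was possible only for the differences between sets and the shift of the start. It was seen in 0 of these, which says nothing about the other results. With the top 5% of scores there were 921 members, with a median shGFP width of 3430 bp and 32.4% within 100 kb of another. With the top 20% there were 3976, which were 60.2% of strong pairs, with a median width of 2920 bp, 60.2% within 100 kb and 16.1% on chromosome 8. A width ratio within 5% of 1 left 43.7% of strong pairs as members and 33.3% within 100 kb. An overlap of 50% of both peaks gave 60.1% of strong pairs and a median width 279 bp above that of the other strong pairs, and merging peaks within 500 bp a median of 3517.5 bp and a difference of 680.5 bp. Without chromosome 8, with score limits set anew, the median was 3012.5 bp and 39.6% lay within 100 kb. At distances of 50 and 250 kb the clustered shares were 31.8% and 66.5%. The difference in the median number of strong neighbours was 1 or 0 throughout. Its main value of 1 had an interval of -1 to 1, so a fall to 0 counted as inside the range. Leaving out peaks scoring 3100 or more was added after the data were seen and moved no value beyond its range. A wider set of scores or a wider distance raises the clustered share by construction; the cause of the other shifts was not tested. No paired analysis was possible because the labels give a single sample per hairpin. Depth, which sets how many weak peaks are called and where edges fall, is unknown.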
